A study of Mus musculus with 8 samples.

Results

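The genes described here are 10 genes of serotonin synthesis, storage, uptake and breakdown and of enterochromaffin cell regulation: Tph1, Tph2, Ddc, Gch1, Slc18a1, Slc18a2, Slc6a4, Maoa, Lmx1a and Fev. They are taken by name from the serotonin pathway, and are 10 of the 36091 genes named on the array, with 13 of its 55681 probes. Their expression was measured with single-colour Agilent arrays in mouse embryonic small intestine at E18.5, on 4 control arrays and 4 arrays labelled mutant. The study set out to find targets of Rfx6, a transcription factor of endocrine differentiation, in the endocrine cells of the gut.

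All embryos carried at least 1 floxed Rfx6 allele, a copy flanked by sites for the Cre recombinase. Control replicates 1, 3 and 4 were Rfx6 fl/+, with 1 floxed allele, and control replicate 2 was Rfx6 fl/fl, with 2. The 4 mutants were Rfx6 fl/fl Ngn3-cre. Ngn3-Cre is active in endocrine progenitors and their descendants, here in an otherwise intact gut. No Cre is named for any control, so Cre and the deletion cannot be told apart in this comparison. The labels number the arrays separately but do not give litter, sex or strain, so the p-values measure the spread between these samples. For mutant replicates 2, 3 and 4 the description field gives another Rfx gene, whereas the titles and source names give Rfx6.

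Enterochromaffin cells are the serotonin-producing endocrine cells of the gut epithelium and the source of most of the serotonin in the body. They hydroxylate tryptophan with Tph1 and the cofactor tetrahydrobiopterin, decarboxylate the product with Ddc, and load serotonin into granules with vesicular monoamine transporters. Released serotonin acts on receptors of nerve endings, muscle and epithelium, and is cleared by the transporter Slc6a4 and degraded by monoamine oxidase.

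Levels are log2 processed spot intensity minus that of the array's own 75th percentile, where 0 stands for that percentile, and a difference is always mutant minus control. The level of a gene is compared between arrays for 1 probe. Summed levels of a list run over several probes and weigh the brightest most, and levels relative to Chga subtract the Chga probe on the same array. That percentile was 788 to 1027 intensity units, and each array had 59.7% to 69.9% of its probes well above background. All 8 arrays lay on 1 slide, with 2 controls and 2 mutants in each of its 2 rows. The peptide hormone genes, the gut endocrine products listed for comparison, had a summed linear level of 134.0 to 145.1 in controls and 41.6 to 56.3 in mutants. Sct was the brightest of them, with mean levels of 6.42 in controls and 5.42 in mutants, and weighs most in these sums. The Rfx6 probe did not separate the groups, with controls at -3.23 ± 0.23 and mutants at -3.73 ± 1.20 (SD, n = 4 each), and therefore checks no label. Mutant replicate 1 stood apart, its mean correlation with the remaining arrays across genes being 0.978 where theirs were 0.990 to 0.991, and member values are given with and without it where it matters. All 10 small intestine epithelium markers examined, such as villin and Cdx2, were tested, and none passed the threshold.

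Of the 10 genes, 9 were tested. A gene was tested when a probe was well above background on at least 4 of the 8 arrays, counted over both groups, and its brightest such probe stood for it. None of the 9 passed an adjusted p of 0.05 in limma, where 15 of 25326 genes passed (0.0592% of all genes, 0.0553% as lower and 0.00395% as higher). Tph1, Lmx1a and Gch1, 3 of the 9, had an unadjusted p under 0.05, as had 1355 of all genes. The control and mutant values did not overlap for these same 3 genes, against 4.68% of all genes. Tph1 and Lmx1a were the higher pair, against 3.05% of all genes that separated in that direction, and Gch1 was lower, against 1.63%. The other 6 overlapped. By their means 4 were higher and 5 lower, with a median difference of -0.03 against 0.03 for all genes. RNA came from whole small intestine, so fewer cells of a type and less RNA per cell cannot be told apart.

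**Figure D1:**
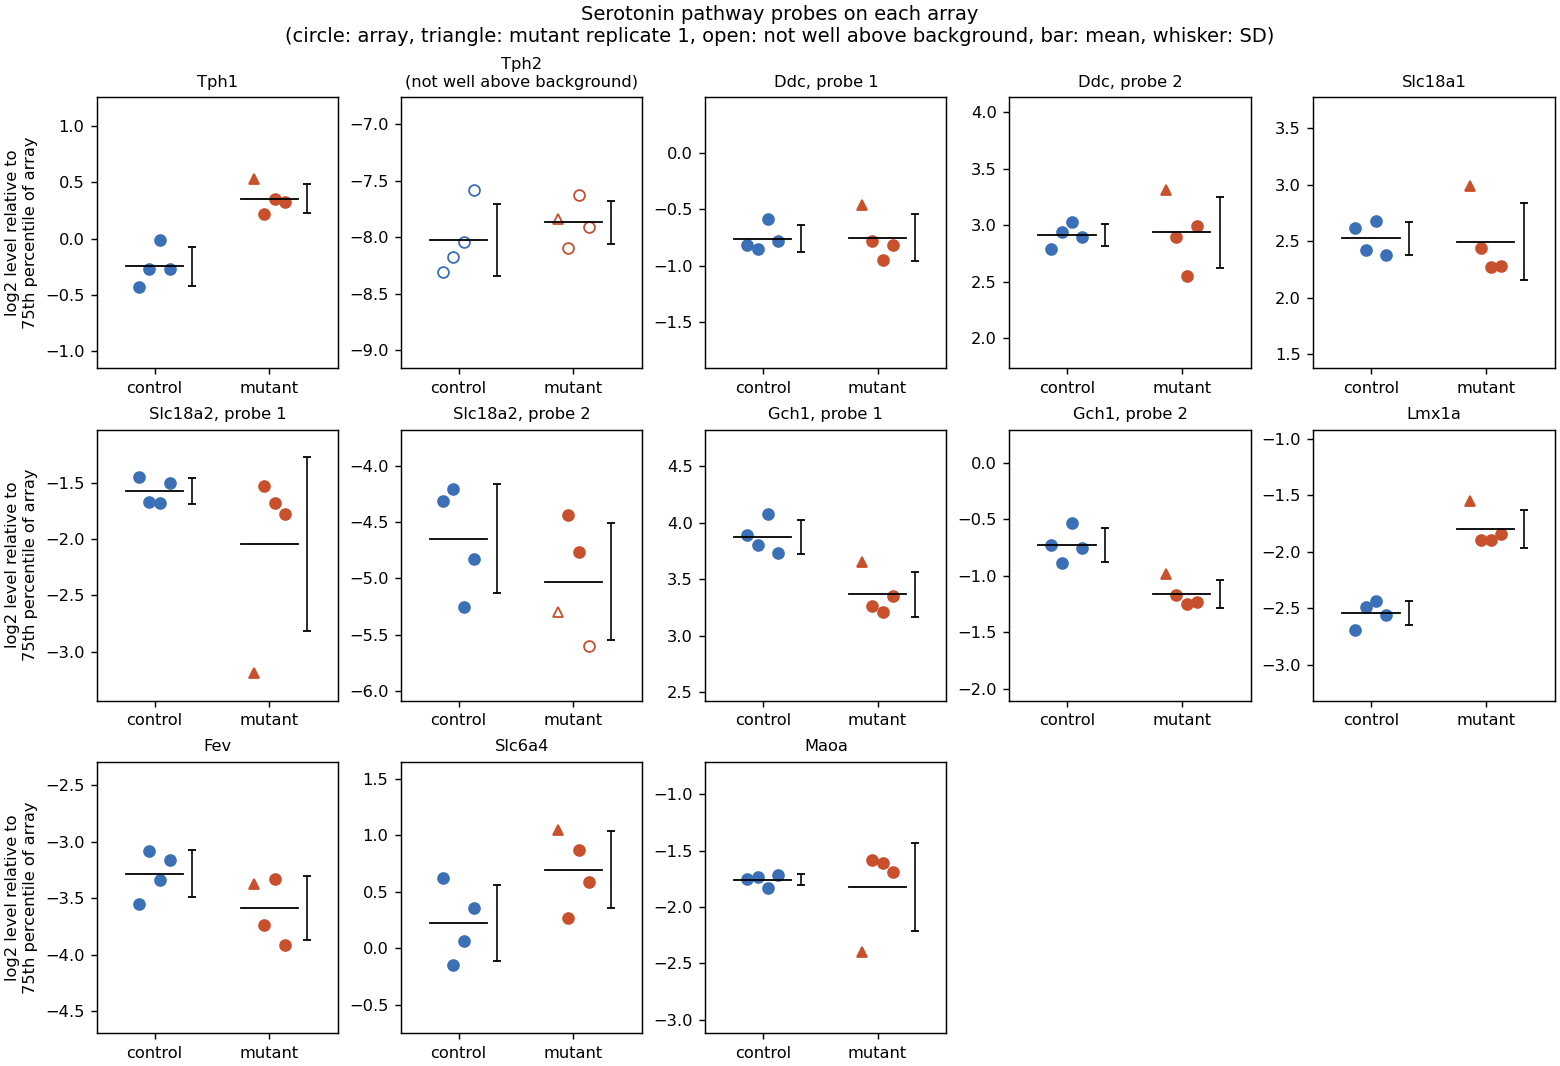
Level of each of the 13 probes on each array, as log2 intensity minus the array's 75th percentile (y axis), for 4 control and 4 mutant arrays. Triangles mark mutant replicate 1, open symbols spots not well above background, bars the group mean and whiskers the SD. The groups separate for Tph1, Lmx1a and both Gch1 probes, and mutant replicate 1 lies far below the other arrays for Slc18a2 probe 1 (-3.19) and Maoa (-2.40).

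Synthesis begins with Tph1, the tryptophan hydroxylase of cells outside the brain and its rate-limiting step. Its probe lies at chr7:53902553-53902612 on the minus strand (mm9). Control replicates 1 to 4 read -0.43, -0.27, -0.01 and -0.27, and mutant replicates 1 to 4 read 0.53, 0.22, 0.35 and 0.32. Every mutant value was above 0 and every control value below it. The means were -0.24 ± 0.17 and 0.35 ± 0.13 (SD, n = 4 each), a difference of 0.60 (SE 0.11, 95% interval 0.34 to 0.86), or 1.51-fold, with a limma adjusted p of 0.277. The difference was 0.72 within the first slide row and 0.48 within the second. Without mutant replicate 1 it was 0.54 (SE 0.10, limma adjusted p = 0.255). The control with 2 floxed alleles, replicate 2, read the same as control replicate 4 and lay within the range of the other controls.

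Tph2, the tryptophan hydroxylase of serotonergic neurons, was not well above background on any array. Its probe at chr10:114516684-114516743 on the minus strand read -8.31 to -7.58 in controls and -8.10 to -7.63 in mutants, values that carry no order. It was not tested.

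Gch1, GTP cyclohydrolase, makes the first committed intermediate of tetrahydrobiopterin, the cofactor that tryptophan hydroxylase needs. It was the member whose mutant values all lay below the controls. The probe at chr14:47775348-47775407 on the minus strand read 3.89, 3.80, 4.08 and 3.73 in control replicates 1 to 4 and 3.65, 3.26, 3.21 and 3.35 in mutant replicates 1 to 4. The highest mutant value, that of replicate 1, lay just below the lowest control, and the groups overlapped when arrays were centred on the median of tested probes. The means were 3.87 ± 0.15 and 3.37 ± 0.20 (SD, n = 4 each), a difference of -0.51 (SE 0.13, 95% interval -0.80 to -0.22), with a limma adjusted p of 0.553. Without mutant replicate 1 it was -0.60 (SE 0.099, limma adjusted p = 0.185).

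A second Gch1 probe, at chr14:47773797-47773856, shares no base with the first and gave the same order of groups, with no call (0.0423% of probes were called). Controls read -0.73, -0.89, -0.53 and -0.75, and mutants -0.98, -1.17, -1.25 and -1.23, again without overlap. Its difference was -0.43 (SE 0.11, limma adjusted p = 0.694 over all 35472 tested probes), where the groups separated for 4.38% of probes. Within the first and second slide rows the brighter probe differed by -0.39 and -0.62. The first 30 bases of the probes for the 3 genes that separated are shown because the result rests on these target stretches, all in lower case since no part is singled out.
Tph1 probe, chr7:53902583-53902612: tacttctgttttgtcttctggaacctgctg
Lmx1a probe, chr1:169778804-169778833: caaacagagatccttaattctactctctaa
Gch1 brighter probe, chr14:47775378-47775407: cgtacattccagtttcagttggtacacttg
Gch1 dimmer probe, chr14:47773827-47773856: ctgaacgaccctgttgggtcattctctaga

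Ddc, the aromatic amino acid decarboxylase that turns the hydroxylated amino acid into serotonin, had overlapping groups on both of its probes. The brighter probe, at chr11:11714106-11714165 on the minus strand, read 2.79, 2.94, 3.03 and 2.89 in controls and 3.31, 2.89, 2.55 and 2.99 in mutants. Mutant replicates 1 and 3 were the highest and the lowest of all 8 arrays. The difference was 0.021 (SE 0.155, 95% interval -0.33 to 0.37, limma adjusted p = 0.977), and its sign turned to -0.10 without mutant replicate 1. The other probe, at chr11:11776262-11776321, read -0.85 to -0.59 in controls and -0.95 to -0.46 in mutants, a difference of 0.010 (SE 0.125, limma adjusted p = 0.985 over all probes). Mutant replicate 1 was again the highest array.

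The vesicular monoamine transporters fill secretory granules with serotonin, and Slc18a1 is the form best known from endocrine cells. Its probe, at chr8:71561627-71561686 on the minus strand, read 2.62, 2.42, 2.68 and 2.38 in controls and 2.99, 2.44, 2.27 and 2.28 in mutants. Mutant replicate 1 was the highest array, and mutant replicates 3 and 4 were the lowest. The difference was -0.03 (SE 0.17, 95% interval -0.42 to 0.36, limma adjusted p = 0.966), and it was -0.20 without mutant replicate 1. Within the slide rows it was 0.19 and -0.26.

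Slc18a2 is the form best known from monoamine neurons, and also stores histamine. The brighter probe, at chr19:59370106-59370165 on the plus strand, read -1.45, -1.67, -1.68 and -1.50 in controls and -3.19, -1.53, -1.68 and -1.78 in mutants. Mutant replicate 1 was far below all other arrays, and the other 3 mutants overlapped the controls. The difference of -0.47 (SE 0.33, limma adjusted p = 0.821) was -0.085 (SE 0.095) without that array. The dimmer probe, at chr19:59370153-59370212, was well above background on all 4 controls and on mutant replicates 2 and 3. It read -4.31, -4.21, -5.25 and -4.83 in controls and -5.30, -4.44, -4.77 and -5.60 in mutants, and the ranges of the groups overlapped. These probes share 13 bases, printed in capitals at the end of the first and the start of the second, so they are not independent readings of the gene.
Slc18a2 brighter probe, chr19:59370136-59370165: gatcagcaaaggcatgcCTGTTACTGCTCT
Slc18a2 dimmer probe, chr19:59370153-59370182: CTGTTACTGCTCTccaaagaaaaaagaaaa

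Among the regulators, Lmx1a encodes a LIM-homeodomain transcription factor known for a role in enterochromaffin cells and in dopaminergic neurons. It had the largest difference of the 9 tested members. Its probe, at chr1:169778804-169778863 on the plus strand, read -2.69, -2.49, -2.44 and -2.56 in controls and -1.55, -1.90, -1.90 and -1.84 in mutants. The gap between the highest control and the lowest mutant was wider than the range of the controls. The means were -2.55 ± 0.11 and -1.80 ± 0.17 (SD, n = 4 each), a difference of 0.75 (SE 0.11, 95% interval 0.50 to 1.00), or 1.68-fold, with a limma adjusted p of 0.109. Mutant replicate 1 was the highest of the 8, and without it the difference was 0.67 (SE 0.079, limma adjusted p = 0.0669). It was 0.87 within the first slide row and 0.63 within the second. When arrays were weighted by their agreement, which gave mutant replicate 1 a weight of 0.117, Lmx1a passed at 0.66 (limma adjusted p = 0.0123). With these weights 42 of 25326 genes passed, against 15 in the main fit. Over all 19 alternatives its adjusted p ranged from 0.0123 to 0.739.

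Fev (Pet1), an ETS transcription factor of serotonergic neurons that also marks endocrine precursors, had overlapping groups. Its probe, at chr1:74928260-74928319 on the minus strand, read -3.55, -3.08, -3.34 and -3.16 in controls and -3.37, -3.74, -3.33 and -3.91 in mutants. Mutant replicates 2 and 4 were the lowest arrays, and mutant replicates 1 and 3 lay among the controls. The difference was -0.31 (SE 0.16, 95% interval -0.68 to 0.07, limma adjusted p = 0.821), or -0.38 without mutant replicate 1, -0.20 without mutant replicate 4 and -0.15 with the deposited table.

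Slc6a4, the serotonin transporter that returns serotonin into cells, read 0.62, -0.15, 0.06 and 0.36 in controls and 1.05, 0.27, 0.87 and 0.59 in mutants. The probe lies at chr11:76845777-76845836 on the plus strand. Mutant replicates 1 and 3 were above every control, and mutant replicates 2 and 4 lay within the control range. The difference was 0.47 (SE 0.21, 95% interval -0.01 to 0.96, limma adjusted p = 0.821), with 0.43 and 0.52 within the slide rows.

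Maoa, the monoamine oxidase that prefers serotonin as substrate, read -1.75, -1.73, -1.83 and -1.72 in controls and -2.40, -1.58, -1.61 and -1.69 in mutants. The probe lies at chrX:16264785-16264844 on the plus strand. Mutant replicate 1 was the lowest array, while the other 3 mutants were above every control. The difference of -0.063 (SE 0.18, limma adjusted p = 0.932) turned to 0.13 (SE 0.067, limma adjusted p = 0.795) without mutant replicate 1. With that array left out, 4 of the 9 members separated, 3 higher (Tph1, Lmx1a and Maoa) and 1 lower (Gch1), against 8.02% of all genes.

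**Figure D2:**
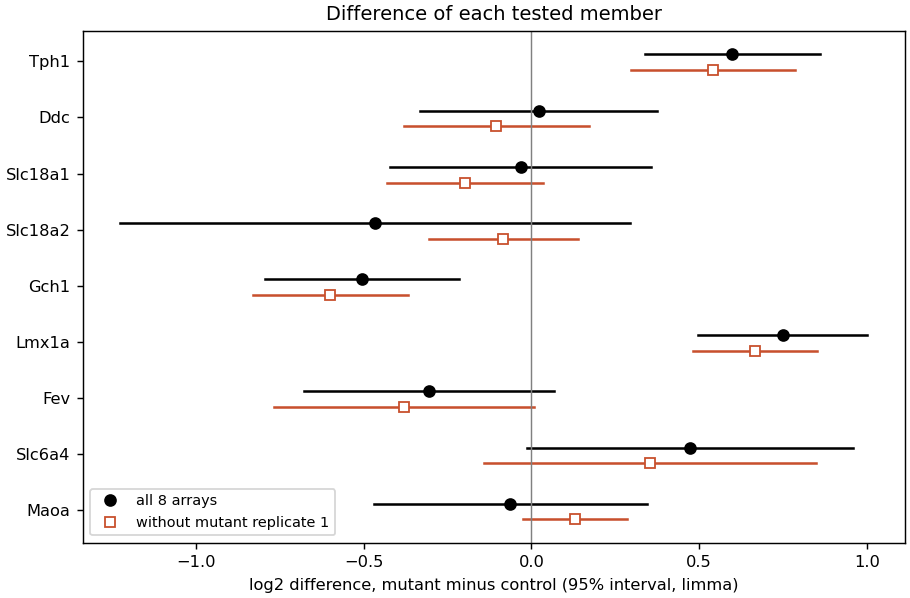
Difference, mutant minus control on the log2 scale (x axis), of the 9 tested members with the 95% limma interval, over all 8 arrays and without mutant replicate 1. The estimates run from -0.51 for Gch1 to 0.75 for Lmx1a, and leaving out mutant replicate 1 moves Slc18a2 to -0.085 and Maoa to 0.13.

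The members were also set beside Chga on the same array. Chga encodes chromogranin A, a granule protein that endocrine cells of many types share, and is itself among the other enterochromaffin genes listed below. It serves here as a scale within each array, and the values are not levels per endocrine cell. Chga itself read 3.35, 3.52, 3.82 and 3.54 in controls and 3.59, 3.27, 3.06 and 3.22 in mutants, a difference of -0.27 (SE 0.14, limma adjusted p = 0.821) with overlapping groups. Without mutant replicate 1 the difference of Chga was -0.37 and its groups separated as lower. In that setting 1056 of 25326 genes separated as lower, and 8.02% of all genes in either direction. The Chga scale moves the median of all genes from 0.03 to 0.30, and 27.0% of all genes then separated, 26.8% as higher. It shifts the difference of every gene alike, so a distance from that median is the same with and without the scale. Of all genes, 0.0592% passed an adjusted p of 0.05 on it, 0.0237% as higher and 0.0355% as lower.

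Lmx1a was the member that passed relative to Chga. Its log2 level minus that of Chga was -6.04, -6.01, -6.26 and -6.10 in controls and -5.14, -5.17, -4.95 and -5.06 in mutants, without overlap. The difference was 1.02 (SE 0.11, limma adjusted p = 0.0191). That is 0.72 above the median of all genes, a distance that the scale does not change. The fit tests against 0 and not against that median, so the lower mutant mean of Chga, itself not called, enters the call. Without the Chga scale the difference was 0.75 and was not called (limma adjusted p = 0.109). Relative to Chga, the adjusted p was 0.0461 without control replicate 3 and 0.0246 without mutant replicate 1. The call was lost without control replicate 1 (limma adjusted p = 0.0577), 2 (0.111) or 4 (0.142) and without mutant replicate 2 (0.0850), 3 (0.0911) or 4 (0.0748).

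Tph1 varied little relative to Chga among the controls, at -3.78, -3.79, -3.83 and -3.81, and read -3.06, -3.05, -2.71 and -2.90 in the mutants. The difference was 0.87 (SE 0.12, limma adjusted p = 0.0653). That is 0.57 above the median of all genes, again the same distance as without the scale. Gch1 relative to Chga separated in the other direction, at 0.54, 0.28, 0.26 and 0.19 in controls and 0.06, -0.01, 0.15 and 0.13 in mutants, a difference of -0.23 (limma adjusted p = 0.184). Genes that separated lower on this scale were 0.174% of all genes. Ddc separated higher by 0.29 (limma adjusted p = 0.121), 0.01 below the median of all genes. Slc6a4 differed by 0.75 (limma adjusted p = 0.0996), with overlapping groups.

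**Figure D3:**
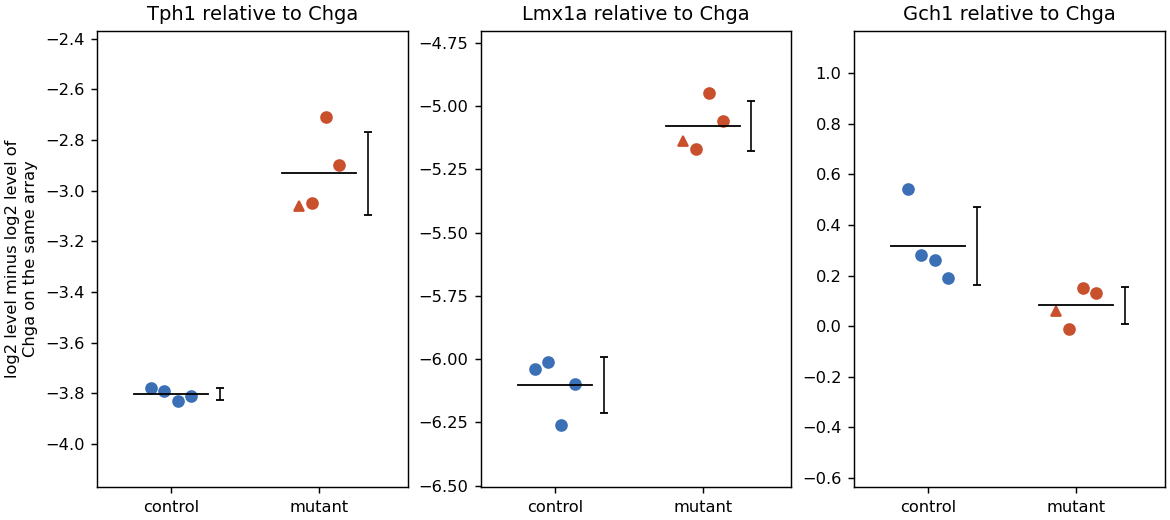
Log2 level of Tph1, Lmx1a and Gch1, the members whose groups separated, minus the log2 level of Chga on the same array (y axis), for 4 control and 4 mutant arrays (triangle: mutant replicate 1, bar: mean, whisker: SD). Tph1 controls lie within -3.83 to -3.78 and mutants within -3.06 to -2.71, and Lmx1a controls within -6.26 to -6.01 and mutants within -5.17 to -4.95.

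Tph1 and Lmx1a had like patterns over the 8 arrays, with a Pearson r of 0.977. The genes whose values were most like those of Tph1 were Lmx1a (r = 0.977), Try4, a trypsin gene (0.977), Odf3b (0.976) and Ptk6, an epithelial tyrosine kinase (0.969). Those most like Lmx1a were Ptk6 (0.994), Odf3b (0.991) and a pair of probes named for intergenic RNA intervals on chromosomes 4 and 9 (0.987 and 0.985). Of all tested genes, 17 had an r above 0.95 with Tph1 and 23 with Lmx1a. The groups separate for both genes, so the group difference enters each r, and these values rank likeness and test nothing.

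**Figure D4:**
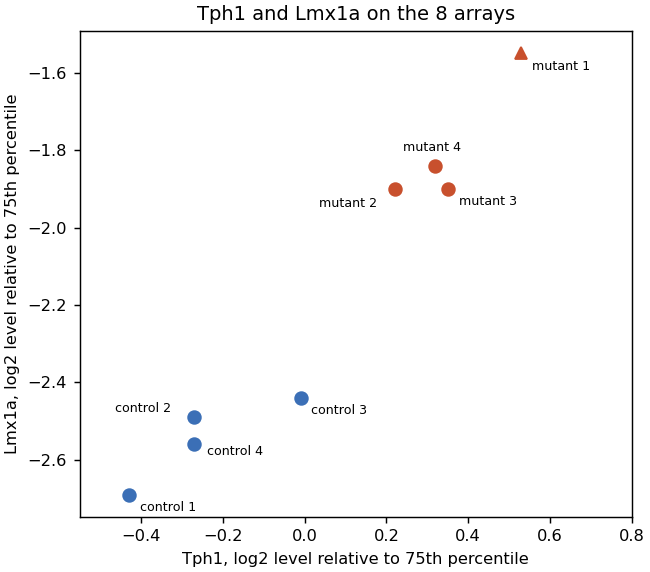
Level of Tph1 (x axis) and Lmx1a (y axis) on each array, both as log2 intensity relative to the 75th percentile. The 4 controls lie at lower left and the 4 mutants at upper right, with mutant replicate 1 highest on both axes (0.53 and -1.55).

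Promoters of the members were searched for 4 motifs on both strands, in windows from 250 bases before to 50 after each transcription start (RefSeq, GRCm38.p6, 32851 promoters). Of the 10 genes, 9 matched an entry, with 11 promoters in all, and Slc18a1 had none. A form of the X-box that RFX factors bind, GTTNCC followed after 3 free bases by GNAAC, was in 0 of the 11 and in 0.804% of all promoters. GTTGCC, a half-site that can overlap the X-box, was in 3 of the 11, both Ddc promoters and that of Maoa, against 12.5% of all. TAATTA, a core of LIM-homeodomain sites, was in 2 of the 11, against 5.29% of all, and TGACGTCA, the cyclic AMP response element, in that of Slc18a2, against 1.79%. A match describes the letters of the window and is no evidence of binding.

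The promoters of the 2 members that separated as higher are shown. Whether these genes are regulated together was not tested. For Tph1 the window printed is the one of its 2 with a TAATTA match, given in capitals, and the Lmx1a window held none of the 4 motifs and stays in lower case. The other TAATTA match was in the promoter of Fev.
Tph1 promoter, chr7:46667328-46667627, minus strand, GRCm38.p6: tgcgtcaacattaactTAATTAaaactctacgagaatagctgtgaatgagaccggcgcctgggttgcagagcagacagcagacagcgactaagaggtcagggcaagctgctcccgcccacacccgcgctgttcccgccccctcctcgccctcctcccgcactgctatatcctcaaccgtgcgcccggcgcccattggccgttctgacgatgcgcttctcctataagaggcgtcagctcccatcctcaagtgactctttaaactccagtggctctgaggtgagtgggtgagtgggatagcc
Lmx1a promoter, chr1:167689308-167689607, plus strand, GRCm38.p6: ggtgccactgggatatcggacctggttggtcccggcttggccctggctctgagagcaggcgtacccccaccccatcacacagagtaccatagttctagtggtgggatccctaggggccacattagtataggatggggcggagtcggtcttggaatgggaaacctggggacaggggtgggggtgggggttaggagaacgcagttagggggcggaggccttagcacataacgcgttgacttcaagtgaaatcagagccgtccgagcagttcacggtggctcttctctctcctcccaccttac

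Genes that act beside the members were followed in 6 lists with 85 genes, of which 65 were tested. Of these 65, 3 passed as lower and 0 as higher (0.0592% of all genes passed in either direction), and 11 separated without overlap, where 4.68% of all genes did. Without mutant replicate 1 the list medians given below became 0.017 for tetrahydrobiopterin, 0.023 for tryptophan, 0.067 for amine breakdown and uptake, -0.05 for receptors, 0.014 for other enterochromaffin genes and -0.09 for endocrine regulators. At the level of cofactor supply, the 8 other tetrahydrobiopterin genes were all tested, 3 lower and 5 higher by their means, with a median of 0.06 and none separating. Pts, the enzyme that follows Gch1, differed by -0.01 (SE 0.08), and Gchfr, the feedback regulator of Gch1, by 0.04 (SE 0.16).

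Of 12 genes of tryptophan supply and its other fates, 9 were tested, 1 lower and 8 higher, with a median of 0.11 and none called. Without mutant replicate 1 these were 3 lower and 6 higher. Kmo, an enzyme of the kynurenine route, was the 1 that separated, at -2.45 to -2.08 in controls and -2.04 to -1.87 in mutants (0.29, SE 0.10, limma adjusted p = 0.821). Of 15 genes of amine breakdown and uptake, 11 were tested, 3 lower and 8 higher, with a median of 0.07 and none called. Sult1a1, a sulfotransferase, separated by 0.16 (SE 0.084, limma adjusted p = 0.821). Hdc, the enzyme that makes histamine, read -3.33, -2.45, -2.46 and -2.78 in controls and -0.73, -2.23, -2.37 and -2.35 in mutants. These values separated too, by 0.84 (SE 0.38, limma adjusted p = 0.821), or 0.44 without mutant replicate 1.

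Serotonin receptors were mostly out of range of the arrays. Of 14 receptor genes, 5 were tested and 7 were not well above background on any array (Htr1a, Htr1b, Htr1d, Htr1f, Htr2c, Htr5b and Htr7). The 5 had a median of -0.05, with 4 lower and 1 higher. Htr4, a receptor of enteric nerves and epithelium, separated as lower, at -3.99 to -3.59 in controls and -4.54 to -4.08 in mutants (-0.53, SE 0.14, limma adjusted p = 0.588).

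Among 15 other genes known from enterochromaffin cells, 12 were tested, 7 lower and 5 higher, with a median of -0.02. Trpa1, an irritant-sensing channel, fell, with -2.60, -2.22, -2.21 and -2.40 in controls and -3.58, -3.37, -3.55 and -3.23 in mutants. Its difference was -1.07 (SE 0.13, limma adjusted p = 0.0302). The call was lost without control replicate 2 (limma adjusted p = 0.147), 3 (0.119) or 4 (0.171) and without mutant replicate 1 (0.0697), 2 (0.0992) or 3 (0.141). It was also lost with the slide row as a block (0.0610), with the deposited table (0.0540) and with no filter on dim probes (0.0911), and Trpa1 passed in 9 of 19 alternatives. Tac1, which encodes substance P, separated as higher, at 1.70, 1.96, 1.70 and 1.90 in controls and 2.53, 2.35, 2.34 and 2.21 in mutants (0.54, SE 0.11, limma adjusted p = 0.294). Ucn3, a urocortin, separated as lower, at -4.34 to -3.67 in controls and -5.56 to -4.70 in mutants (limma adjusted p = 0.239). Its probe was well above background on 3 of the 4 mutant arrays, which gives at least 2.38-fold between the group means in the processed intensity used here. Its fitted difference of -1.27 was -0.47 with normexp background correction and -0.44 with the deposited table, both smaller than that bound.

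Of 21 endocrine transcription factor genes, 20 were tested, 11 lower and 9 higher, with a median of -0.06, and 2 passed as lower. Isl1, a LIM-homeodomain factor of many endocrine types, fell at least 3.19-fold (limma adjusted p = 8.33e-04), from -4.29 to -3.85 in controls to -6.99 to -6.30 in mutants, none of which read the probe well above background. That bound holds for the processed intensity used here. The fitted difference of -2.52 was -0.66 with normexp and -0.69 with the deposited table, both passing. Neurog3, the gene that starts endocrine differentiation, read 0.05 to 0.23 in controls and 0.72 to 1.03 in mutants (0.76, SE 0.098, limma adjusted p = 0.0550), and passed in 5 of 19 alternatives. Pax4, a factor of early endocrine cells, read -2.62 to -2.01 in controls and -1.58 to -1.42 in mutants (0.70, SE 0.14, limma adjusted p = 0.335). Both separated as higher, as Tph1 and Lmx1a did. All 8 peptide hormone genes listed fell, Gip, Gcg, Cck, Sct, Sst, Nts, Pyy and Ghrl, with a median fitted difference of -3.70. Gip was well above background on 1 of the 4 mutant arrays, so its fall is at least 213.5-fold in the processed intensity used here. Its fitted -8.02 is no measured size. It was -5.61 with the deposited table and -5.62 with normexp, both smaller than that bound. Among the 9 serotonin members 0 were called, a count that the share of all genes called (0.0592%) would also give. Whether the serotonin members and the hormones differ from each other was not tested.

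**Figure D5:**
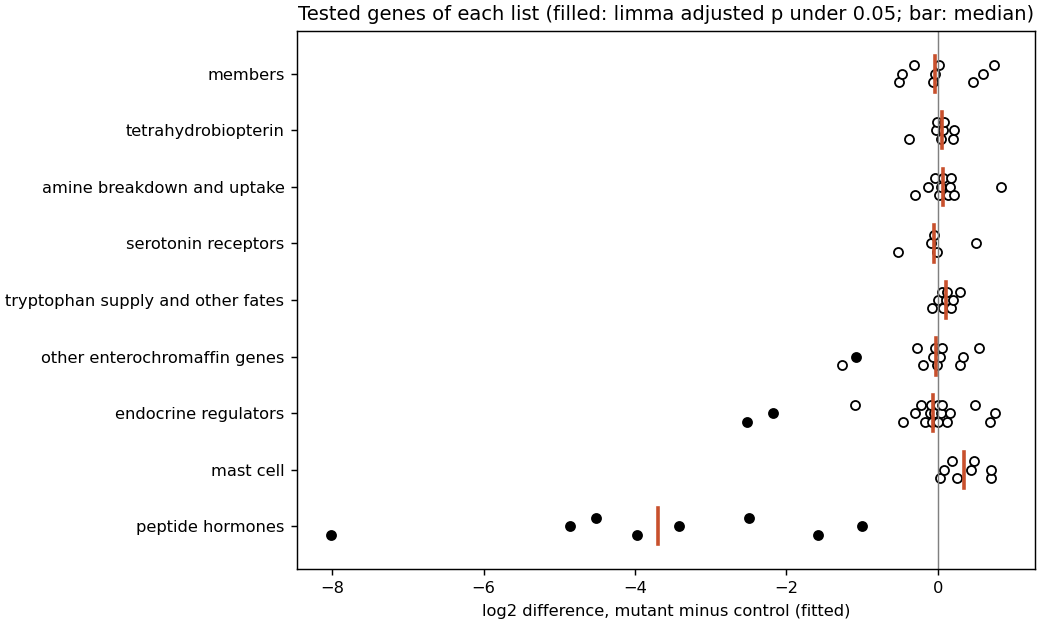
Difference, mutant minus control on the log2 scale as fitted (x axis), of every tested gene among the members, the 6 pathway lists, the mast cell markers and the peptide hormones, 1 dot a gene, with filled dots for genes past a limma adjusted p of 0.05 and a bar at the median. The members lie between -0.51 and 0.75 with none filled, while all 8 peptide hormones are filled, from a fitted -8.02 for Gip, which has only a bound, to -0.997.

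No marker of the other cells listed that make or use serotonin passed the threshold. Mast cells, which in rodents also express Tph1, were followed with 11 markers, of which 8 were tested. All 8 were higher by their means, by 0.03 to 0.71 with a median of 0.35, and none passed or separated. That median was 0.18 without control replicate 1 and 0.56 without control replicate 2. The summed linear level of the list was 1.97 to 3.25 in controls and 2.83 to 3.32 in mutants, and Ms4a2 and Tpsab1, a receptor subunit and a protease of mast cells, were not well above background on any array. The part of mast cells in the Tph1, Hdc and Slc18a2 values was not tested. All 11 enteric neuron markers were tested, 5 lower and 6 higher, with a median of 0.05, none called, and sums of 28.2 to 34.9 in controls and 29.995 to 33.9 in mutants.

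Pancreatic acinar genes had higher values on the mutant arrays, as Tph1 and Lmx1a did. Of 7 listed, 5 were tested, all higher by their means, with a median of 1.30 and none called, and Amy2a5, Cela2a and Cel separated (3.05% of all genes separated as higher). With the slide row as a block Amy2a5 (limma adjusted p = 0.0239) and Cela2a (0.0197) passed, as did Amy2a5 (0.0460) when control replicate 3 was left out and Cela2a (0.0307) when mutant replicate 4 was. Each passed in 2 of 18 alternatives. Cela2a was well above background on 0 controls and 4 mutants, so it was tested through the mutant arrays alone. Its fitted 3.95 is no measured size. It was 1.05 with normexp (limma adjusted p = 0.579) and 1.08 with the deposited table (0.600). The summed linear level of the list was 0.945 to 2.18 in controls and 2.80 to 13.9 in mutants, and was 5.23 in mutant replicate 1. Try4, among the genes most like Tph1, is of the same kind and differed by 4.63 (limma adjusted p = 0.135). The part of pancreatic tissue in the values of the members was not tested.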

How the data were processed

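Per the labels' protocols, 100 ng of total RNA from TRI-reagent extraction was labelled with Cy3. The authors used Agilent Feature Extraction 10.10.1.1, per the file headers, and deposited linear processed intensity per spot, corrected for background within each array. They also deposited a table of linear intensity, which ranked spots as the median signal did (rank correlation at least 0.99997) and was used as an alternative.

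Levels were log2 processed intensity minus the log2 75th percentile of the 59305 non-control spots. Control and outlier spots were left out, and spots of a probe averaged. Probes were named through RefSeq accessions for 26687 probes and synonyms for 474. No exon or UTR annotation was used here for the mm9 probe positions. Mutants were set against controls with limma 3.58.1 under R 4.3.3 (two-sided, no covariates, Benjamini-Hochberg over 25326 genes), a fit tested on simulated data. The simulated differences were larger than that of any member and no simulated array stood apart, so recovery of differences of the members' size was not tested. A fold is a lower bound when the dim group held arrays whose probe was not well above background, and was set against the lowest signal that was. Such a bound holds for the processed intensity only. With normexp and with the deposited table, Gip, Isl1 and Ucn3 gave differences smaller than their bounds.

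Members and lists were chosen with earlier results of these data known. The lists were 6 of the pathway and 8 of cell type markers (mast cell, enteric neuron, noradrenergic, beta cell, acinar, small intestine epithelium, peptide hormone, and platelet and blood). Named were all members and every probe, from most lists the genes that were called or separated (at most 6 a list), Chga, Tac1, Rfx6, and the 4 genes most like Tph1 and like Lmx1a. Pts, Gchfr and the receptors not above background were named after their values were seen. Other genes that met this rule are not reported here. Alternatives covered normalisation, background correction, dim-probe filters, probe choice, slide row, replicate number, array weights and each array left out.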

Additional observations from a re-analysis of the deposited data

Results flagged for a closer look

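In 6 of 70 groups of 4 arrays examined, 1 array lay farther from the rest than Dixon's 95% critical value allows. For independent, unselected groups about 3.5 (1 in 20) would do so. These groups share the same arrays, and most of the non-member genes were picked as called or separated. That number is therefore a rough scale only. All 6 flagged arrays were mutant replicate 1. Among the members it read -3.19 for Slc18a2 (other mutants -1.78 to -1.53), -2.40 for Maoa (-1.69 to -1.58) and -1.55 for Lmx1a (-1.90 to -1.84). Among the other genes it read -5.52 for Rfx6 (-3.37 to -3.02), -0.73 for Hdc (-2.37 to -2.23) and 2.16 for Cck (1.80 to 1.83). It was therefore low for 3 of these genes and high for 3.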

How the results depend on the processing

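Tph1, Lmx1a, Gch1, Fev, Slc6a4 and Slc18a2 kept the sign of their difference in all 19 alternatives. Not all of these could turn a sign. The slide row and replicate blocks are balanced and leave every difference as it was. For members with a single probe the dim-probe filters and the probe choice do so too. Those alternatives bear on the adjusted p only. Tph1 ranged from 0.53 to 0.68 (limma adjusted p 0.0734 to 0.827), Lmx1a from 0.56 to 0.78 and Gch1 from -0.60 to -0.44 (0.0540 to 0.942). Fev ranged from -0.44 to -0.15, Slc6a4 from 0.30 to 0.61 and Slc18a2 from -0.64 to -0.076. Htr4 ranged from -0.63 to -0.22 and Sult1a1 from 0.096 to 0.21, without a call. The sign of Ddc turned with quantile normalisation (-0.00164), the deposited table (-0.0247) and array weights (-0.0833), and it ranged from -0.10 to 0.15 when single arrays were left out. Slc18a1 ranged from -0.20 to 0.043 when single arrays were left out. Maoa was 0.12 with array weights and ranged from -0.14 to 0.13 with single arrays left out, and Rfx6 from -0.73 to 0.0986.

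The count of genes called, 15, was 7 with the replicate number as a block and 42 with array weights, and 10 to 23 with single arrays left out, the highest without mutant replicate 4. Member calls, 0, were 1 with array weights. Calls in the pathway lists, 3, were 1 with the replicate block and 5 with array weights. Isl1 had a limma adjusted p of 0.0559 with the block, and Trpa1 0.216. Control and mutant arrays of 1 number had correlations of their deviations of -0.093, 0.056, -0.068 and 0.090, and no mutant correlated best with its own number, so the numbers were not taken as pairs. For levels relative to Chga, single arrays were left out in turn, an alternative chosen after seeing the data. Lmx1a ranged from 0.97 to 1.05, Slc18a2 from -0.39 to 0.29 (without mutant replicate 1), and Fev from -0.19 to 0.052. A panel of 8 arrays limits precision, and probes not well above background have only bounds.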

Other observations

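The remaining marker lists showed no calls among their tested genes. Th, Dbh and Pnmt, enzymes of noradrenergic nerves and chromaffin cells, had a median difference of -0.07. The 5 beta cell genes had a median of -0.10, and Iapp, which encodes amylin, separated as lower, at -1.46 ± 0.33 (SD, n = 4) in controls and -3.19 ± 0.42 in mutants (-1.74, SE 0.23, limma adjusted p = 0.0618). It passed in 4 of 19 alternatives. The 3 tested platelet and blood genes, of 5 listed, had a median of 0.0025, a set of interest because platelets carry serotonin taken up through Slc6a4.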
